A study of Homo sapiens with 12 samples.

Results

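Regions that held a peak with sgRNA4 and a peak with sgRNA6, and none with sgRNA1, sgRNA2, sgRNA3 or sgRNA5, numbered 3523 of the 43438 regions formed by joining all peaks of the series (8.11%). They were chosen by peak presence alone. The peaks of 9 lists were pooled, intervals sharing at least 1 bp were joined, and regions with this combination of guides were kept. The lists come from HEK 293T, a cell line from human embryonic kidney that carries SV40 large T antigen. Its cells at passage 17 to 21 were, per the labels, transfected with Cas9 (the d or the wild-type form, and d in the title of the ChIP control) and a single guide RNA (sgRNA) using Fugene6. They were collected after 3 days, and chromatin sheared to a mean of 300 bp was pulled down with an antibody against HA, an epitope tag. The samples titled with wild-type Cas9 were not among those that gave the 9 lists.

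sgRNA4 and sgRNA6 had 1 library each, so no value below has a replicate error. There were 2 replicates of sgRNA1, sgRNA2 and sgRNA3 and 1 library of sgRNA5. Those 7 lists were used to leave regions out and, in some comparisons, as neighbours. The control of dCas9 without a guide was not analysed here, so the member regions could not be set beside a background without sgRNA. The 9 lists held from 41 to 33611 peaks, with 13660 for sgRNA4, 8346 for sgRNA5 and 33611 for sgRNA6. A region is therefore left out more easily by the longer lists, and the absence of a peak in a short list says little. Read depth is unknown for every library.

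dCas9 is a Cas9 protein whose cutting activity has been removed but which still binds DNA. Its guide pairs with a DNA strand next to a short protospacer adjacent motif, and pairing begins at the guide bases nearest that motif, the seed. Binding can occur at sites that match little beyond the seed, and it is known to be favoured where chromatin is open. Guides with different seeds are thus directed to different sites, whereas DNA that is pulled down irrespective of the guide can appear in many libraries. The guides' sequences and an hg19 genome or gene annotation were not used here, so member regions are given by position in hg19, counted from 1.

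The member regions covered 4.25 Mb and took up 3619 sgRNA4 peaks, 26.5% of that list (exact binomial 95% interval 25.8 to 27.2), and 3695 sgRNA6 peaks, 11.0% of that list (10.7 to 11.3). These intervals, and those below, cover counting error only. Of the 6366 regions in which both guides had a peak, 55.3% were members, the others also holding a peak of a further guide. Another 1820 regions held peaks of sgRNA4, sgRNA5 and sgRNA6 only, while 6413 held sgRNA4 alone and 24499 sgRNA6 alone. A member was usually a simple pair: 3278 (93.0%) held 1 peak of each list. In 149 members 1 sgRNA4 peak was joined to several sgRNA6 peaks, in 76 the reverse held, and in 20 both lists had several. The member length ran from 318 to 5490 bp, with a median of 1110 bp.

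Scores are those that the peak caller MACS wrote for each peak, and no list held a score below 50. They depend on the depth of their own library, so each was read as a rank within its list. Where a member held several peaks of a list, the one with the highest score was taken. All scores come from the peak calls that chose the members, so they are described and not tested. Regions are not replicates of a condition, and differences between kinds of region below were not tested.

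The member regions were mostly of moderate score. The best sgRNA4 score had a median of 78.8 and ran from 50.03 to 2130, against a median of 75.3 for the whole sgRNA4 list. The best sgRNA6 score had a median of 118 and ran from 50.01 to 3100, against 90.0 for the whole sgRNA6 list. Both scores were under 100 in 1030 members (29.2%), and both were 200 or more in 60 (1.70%). At least 1 of the 2 scores lay under 55, just above the lowest score listed, in 594 members (16.9%), and under 60 in 1070 (30.4%).

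The highest peaks of the lists were only in part in members. Of the 3619 sgRNA4 peaks in members, 303 (8.37%) were among the highest 10% of their list, which by construction holds 10.0% of all sgRNA4 peaks. Of the 3695 sgRNA6 peaks, 559 (15.1%) were among the highest 10% of theirs, which holds 10.0% of all sgRNA6 peaks. Membership itself uses these calls, so nothing is read from these differences. Peaks found with 1 guide alone reached the highest 10% in 6.72% of cases for sgRNA4 and 6.13% for sgRNA6. Peaks in regions of sgRNA4, sgRNA5 and sgRNA6 only did so in 16.2% and 26.9% of cases. In regions of sgRNA4 and sgRNA5 only, 10.6% of sgRNA4 peaks did so (7.90 to 13.8). In regions of sgRNA5 and sgRNA6 only, 16.8% of sgRNA6 peaks did so (15.1 to 18.6). The members lay between single-guide regions and those of sgRNA4, sgRNA5 and sgRNA6 in both lists, and so did these other pairs. This place is thus not particular to the members.

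The place of the members along the ranks differed between the lists. With sgRNA4, 22.2% of the highest 10% of peaks lay in members (20.0 to 24.5), 31.5% of the third 10% (29.0 to 34.1) and 21.2% of the lowest 10% (19.0 to 23.5). Member peaks were thus most frequent below the top of the sgRNA4 list. The highest sgRNA4 peaks were instead divided between sgRNA4 alone (31.6%), regions with sgRNA5 and sgRNA6 (22.8%) and other shared regions (23.4%). With sgRNA6, the member share was 16.6% in the highest 10% (15.4 to 17.9) and 7.39% in the lowest (6.53 to 8.32). In that list the lowest 10% lay in regions of sgRNA6 alone in 86.1% of cases, against 44.7% for the highest.

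**Figure D1:**
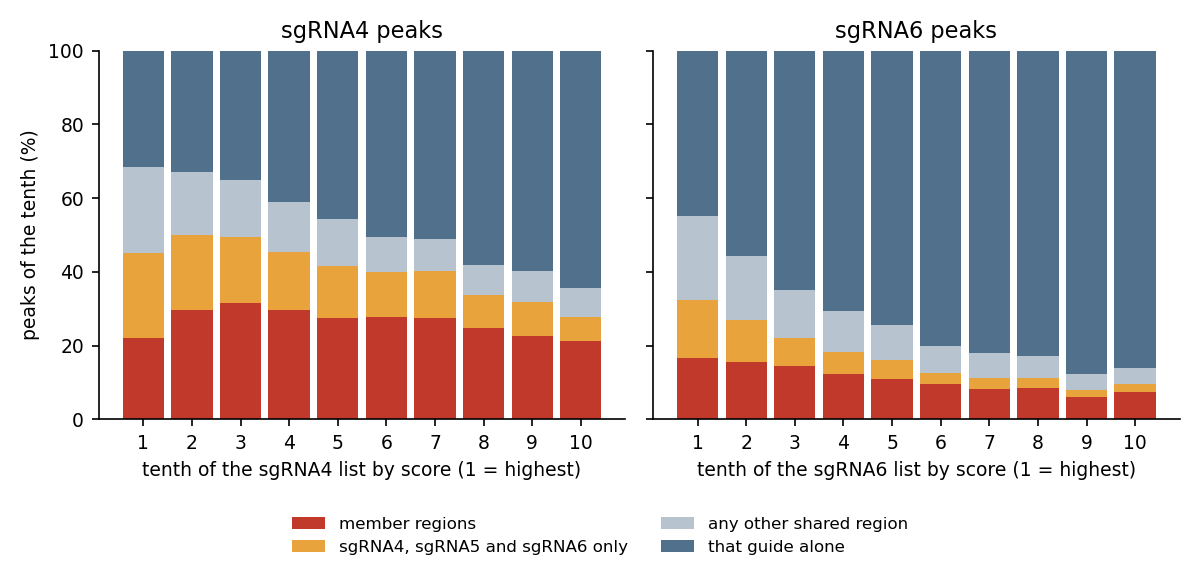
Share of the peaks of each list (vertical axis, %) lying in the member regions, in regions of sgRNA4, sgRNA5 and sgRNA6 only, in any other shared region, or with that guide alone, for each 10% of the list by score (horizontal axis, 1 the highest). The member share of sgRNA4 peaks was largest in the third 10%, at 31.5%, and that of sgRNA6 peaks was largest in the first, at 16.6%.

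Height in one list went only weakly with height in the other. Over the 3523 members, Spearman's rank correlation between the best sgRNA4 and the best sgRNA6 score was 0.10, given as a description, since the points share both libraries. It was 0.14 over the 1820 regions that also held sgRNA5. Where the sgRNA4 peak was in the highest 10% of its list, the median sgRNA6 score was 142, and where it was in the lowest 10% the median was 111. In the other direction, the median sgRNA4 score was 86.2 beside the highest 10% of sgRNA6 peaks and 77.2 beside the lowest. Shares in the highest 10% differed between the ends of the lists too. The sgRNA6 peak was in the highest 10% of its list in 22.4% of members beside the highest 10% of sgRNA4 peaks and in 11.6% beside the lowest. For sgRNA4 peaks beside sgRNA6 peaks the shares were 12.2% and 7.87%. They did not fall steadily between, with 10.1% beside the fifth 10% of sgRNA6 peaks and 4.61% beside the sixth. This correlation was 0.15 when at least 50% of both peaks had to overlap and 0.06 in the higher-scoring 50% of each list.

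Few members had either peak at the top of its list, and this bounds how many can have both there. The best sgRNA4 peak was among the highest 10% of its list in 303 members, and the best sgRNA6 peak in 556. In 68 members (1.93%, 1.50 to 2.44) both peaks were among the highest 10% of their list. In 235 only the sgRNA4 peak was, in 488 only the sgRNA6 peak, and in 2732 (77.5%) neither. Among regions that also held sgRNA5, both were in 129 of 1820 (7.09%, 5.95 to 8.36). Peaks of each list taken singly were also more often in the highest 10% there, so nothing is read from this difference. When peak width replaced score as the measure of height, the share of members with both peaks in the highest 10% was 5.22%.

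**Figure D2:**
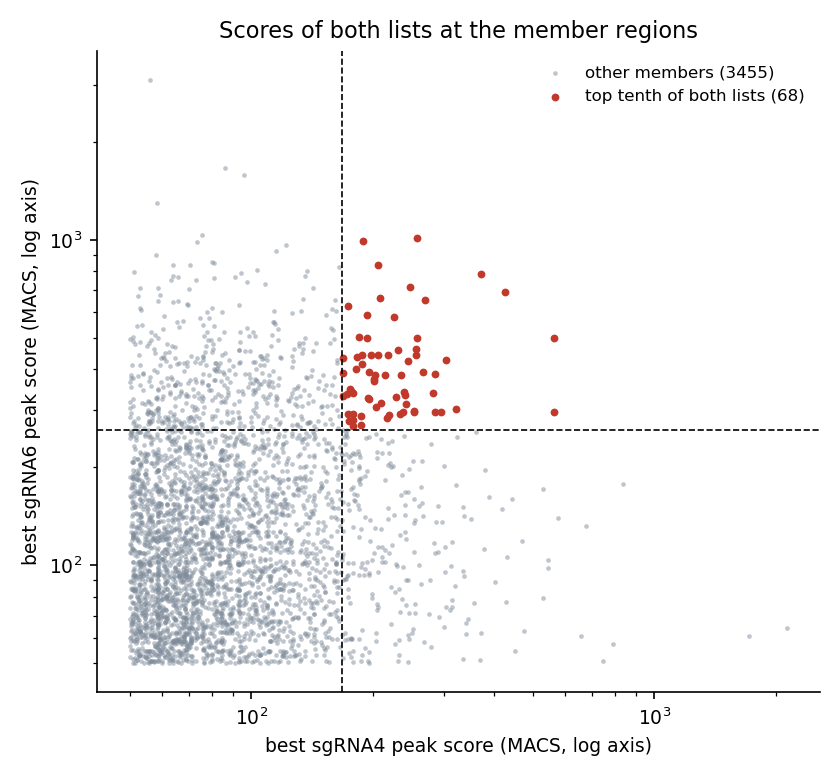
Best sgRNA4 score (horizontal axis) and best sgRNA6 score (vertical axis) of each member region, both on log axes in the caller's own units, with 1 point per region. Dashed lines mark the start of the highest 10% of each list, and the 68 members beyond both are drawn in red, apart from a cloud of low and middling scores.

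The member placed best in both lists at once lay on chromosome X at 117628898 to 117631249. Its sgRNA4 score was 427 (rank 127) and its sgRNA6 score 692 (rank 330), and its nearest sgRNA5 peak was 326 kb away. It was followed by a region on chromosome 3 at 119812399 to 119814754, with scores of 370 for sgRNA4 and 786 for sgRNA6. There, 1 sgRNA4 peak of 2176 bp reached over the whole of the higher sgRNA6 peak, of 1090 bp. The next, on chromosome 4 at 55523728 to 55525554, had scores of 563 (sgRNA4, rank 69) and 499 (sgRNA6, rank 819). These 3 were the members with both ranks within the first 2.44% of their lists.

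The next 5 in this order had sgRNA4 scores between 256 and 269. On chromosome 17 at 18758845 to 18760098 the scores were 269 (sgRNA4) and 654 (sgRNA6), and an sgRNA5 peak lay only 0.536 kb away, which a looser joining would have merged. On chromosome 1 at 1015549 to 1016827 the sgRNA6 score of 1014 (rank 132) stood beside an sgRNA4 score of 257, with peak centres 26 bp apart. Another pair of regions on the same chromosome, at 36022417 to 36024942 and at 206785291 to 206786373, had sgRNA6 scores of 500 and 442 beside sgRNA4 scores of 257 each. On chromosome 5 at 86563145 to 86564793 the scores were 256 (sgRNA4) and 461 (sgRNA6), with centres 412.5 bp apart. All 8 regions were picked for a high rank in both lists, so their height with both guides follows from that choice, and rests on 1 library each.

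The members with the highest sgRNA4 scores had sgRNA6 partners of lower rank. The highest, on chromosome 5 at 1229490 to 1230702, scored 2130 with sgRNA4 (rank 3) and 64.0 with sgRNA6 (rank 25419 of 33611). A region on chromosome 17 at 3582814 to 3584504 scored 1712 (rank 6) and 60.5 (rank 26878). In both, the sgRNA6 peak lay wholly inside the sgRNA4 peak and was much narrower, 634 bp within 1213 bp and 442 bp within 1691 bp.

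The same contrast held on chromosome 7 at 590937 to 592677 (790 with sgRNA4, 57.5 with sgRNA6) and on chromosome 22 at 37454721 to 37455832 (746 and 50.7). Among these 5 regions, the one on chromosome 4 at 113152587 to 113153780 had the highest sgRNA6 score, 178 (rank 6389), beside 835 with sgRNA4.

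The members with the highest sgRNA6 scores likewise had modest sgRNA4 partners. On chromosome 15 at 101094140 to 101099629 an sgRNA6 peak of 5043 bp scored 3100 (rank 4), a value that 5 sgRNA6 peaks share exactly. The highest score of that list was 3160, so 3100 was not its upper limit. Its sgRNA4 partner scored 56.0 and touched it over only 97 bp at one edge, with centres 2696.5 bp apart. This pair met the rule through the breadth of the sgRNA6 peak. The region was also the longest member, at 5490 bp.

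Elsewhere the high sgRNA6 peak and its partner were closer. On chromosome 6 at 170228463 to 170229936 scores were 1663 for sgRNA6 and 86.1 for sgRNA4, and centres were 42 bp apart. On chromosome 8 at 103423751 to 103425570, an sgRNA6 peak of score 1584 was joined to 2 sgRNA4 peaks, the higher at 96.1. On chromosome 22 at 39832415 to 39834950, scores were 1301 for sgRNA6 and 58.4 for sgRNA4, with an overlap of 221 bp. On chromosome 2 at 187558451 to 187559495 they were 1033 and 75.3. None of these 5 members had an sgRNA4 peak in the highest 30% of its list, the best being at 31.8%.

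The widest gaps between ranks showed how far the lists could part within 1 region. On chromosome 22 at 37454721 to 37455832 the sgRNA4 peak was within the first 0.271% of its list and the sgRNA6 peak at 98.8%. On chromosome 15 at 68502680 to 68504397 the scores were 369 for sgRNA4 and 51.2 for sgRNA6, and on chromosome 1 at 205560713 to 205561498 they were 245 and 50.4. In the other direction, a region on chromosome 17 at 29058349 to 29059225 scored 50.05 with sgRNA4 (99.9%) and 494 with sgRNA6 (2.48%). On chromosome 7 at 150685810 to 150686821 the scores were 50.03 for sgRNA4 and 365 for sgRNA6, and on chromosome 3 at 17783107 to 17784557 they were 50.5 and 412. In all 6, the weaker peak was inside the span of the stronger one. Its score was close to the lowest its list holds, which follows from picking the widest rank gaps.

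The rule asks for an overlap, and the pair with the largest overlap was taken. The distance between centres within a member was therefore bounded by the peak widths, and it is given as a description. The centre of the sgRNA6 peak lay at a median of 1 bp from that of the sgRNA4 peak when direction was kept (quartiles -165 and 173 bp). Without direction the median distance was 169 bp, and 56.5% of members had centres within 200 bp (54.8 to 58.1), a distance below the mean fragment of 300 bp to which chromatin was sheared. The pair overlapped by a median of 598 bp, which was 79.1% of the sgRNA4 peak and 75.2% of the sgRNA6 peak. At least 50% of both peaks was shared in 2507 members (71.2%), and fewer than 100 bp in 84 (2.38%).

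**Figure D3:**
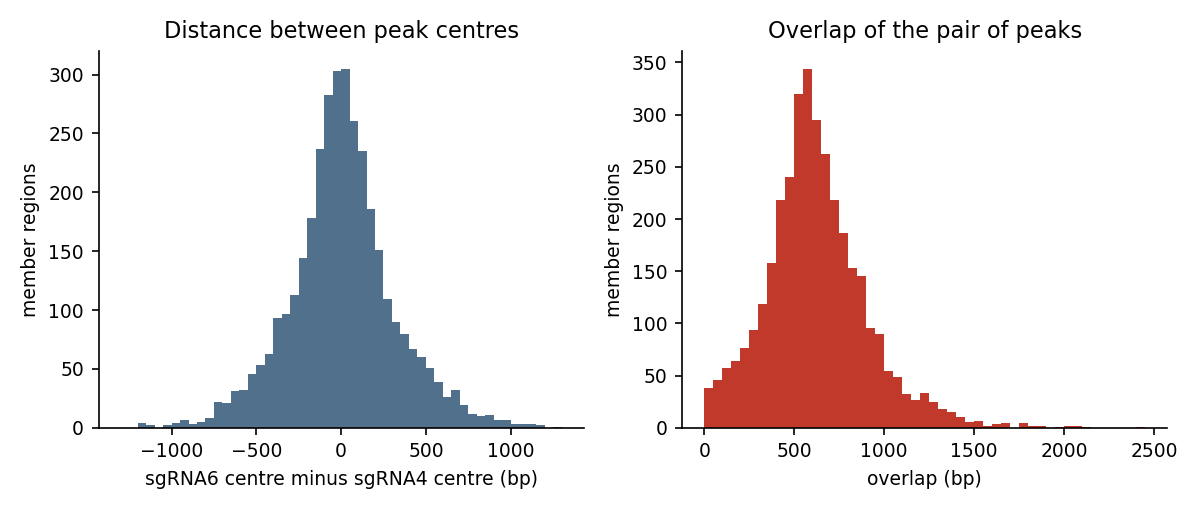
Left, number of member regions (vertical axis) by the centre of the sgRNA6 peak minus that of the sgRNA4 peak in bp, in bins of 50 bp, with 2 regions beyond 1300 bp not drawn; right, the same by the overlap of the pair in bp. The distances form a single hump about 0, and the overlaps a hump about the median of 598 bp with a thin tail towards 0.

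In 1340 members (38.0%) one peak lay wholly within the other. The sgRNA4 peak was inside in 737 and the sgRNA6 peak in 603, and no pair had the same start and end. The sgRNA6 peak was the wider in 1815 members and the sgRNA4 peak in 1707, so neither list was regularly the broader. In regions that also held sgRNA5, where 1807 of 1820 had a direct overlap of sgRNA4 and sgRNA6, the median distance between centres was 156 bp and 43.5% were nested. Centres were not closer where scores were high. The median distance was 191.5 bp in the 68 members high in both lists and 135.5 bp in the 625 with both peaks in the lower 50%, whose regions were shorter, at a median of 861 bp against 1686 bp.

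The smallest overlaps show where the rule ends. Just inside it, a region on chromosome 16 at 85721635 to 85722773 had an overlap of 2 bp, with scores of 59.1 for sgRNA4 and 54.9 for sgRNA6. One on chromosome 19 at 4064272 to 4065320 had 3 bp (215 and 111), and one on chromosome 1 at 87800026 to 87801352 had 5 bp (123 and 72.9). In all 3 the centres were more than 500 bp apart. Just outside it, an sgRNA4 peak on chromosome 11 at 64901236 to 64902170 (score 50.3) and an sgRNA6 peak at 64902172 to 64903225 (131) were 1 bp apart. Gaps of 2 bp separated an sgRNA4 peak on chromosome 1 at 16398809 to 16399363 (56.9) from an sgRNA6 peak at 16399366 to 16399905 (132). A gap of 2 bp was also found on chromosome 12, between 89745545 to 89746136 (sgRNA4, 50.8) and 89746139 to 89746748 (sgRNA6, 67.3). Such near misses were uncommon: 132 of the 6413 regions of sgRNA4 alone (2.06%) lay within 100 bp of a region of sgRNA6 alone, and 778 (12.1%) within 1000 bp.

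Member peaks were wider than peaks found with 1 guide at the same score. Wider peaks meet a rule of overlap more easily, so this is a description. In each of the 10 equal parts of the sgRNA4 list by score, the median width in members exceeded that of sgRNA4-alone peaks, by 56 to 197.5 bp. The same held in all 10 parts of the sgRNA6 list, by 57 to 347 bp. In the highest 10%, medians were 1068 bp in members against 882 bp alone for sgRNA4, and 1220 bp against 873 bp for sgRNA6. Regions that also held sgRNA5 had the wider medians in 8 of the 10 sgRNA4 parts and 7 of the 10 sgRNA6 parts.

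**Figure D4:**
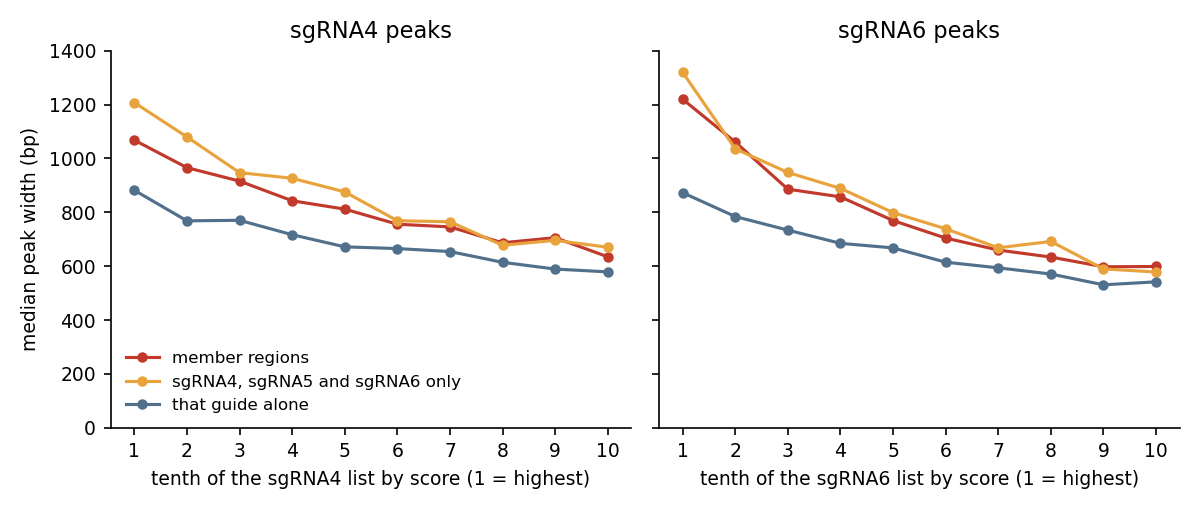
Median peak width in bp (vertical axis) for each 10% of the sgRNA4 list (left) and of the sgRNA6 list (right) by score (horizontal axis, 1 the highest), for the member regions, regions of sgRNA4, sgRNA5 and sgRNA6 only, and peaks of that guide alone. Member medians lie above those of the single guide in all 10 parts of both lists, by 56 to 347 bp.

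The widths of the pair went together more than their scores did. Spearman's rank correlation over the 3523 members was 0.30 between the sgRNA4 and sgRNA6 widths, against 0.10 between scores. Within a list, score and width had a rank correlation of 0.40 for sgRNA4 and 0.59 for sgRNA6. In all, 228 members (6.47%) spanned 2000 bp or more. After the region on chromosome 15, the longest were on chromosome 17 at 79359772 to 79365022 (5251 bp) and chromosome 9 at 138999007 to 139003620 (4614 bp), each made of 2 peaks of each list. The chromosome 9 region scored 361 with sgRNA4 and 256 with sgRNA6, and the chromosome 17 region 143 and 253.

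Chains of several peaks were rare. A single member, on chromosome 9 at 6006767 to 6008775, held 5 peaks, 2 of sgRNA4 and 3 of sgRNA6, with best scores of only 71.9 and 77.1. Another 21 members held 4 peaks. They include a region on chromosome 1 at 226735286 to 226738727 (88.4 with sgRNA4, 248 with sgRNA6) and one on chromosome 11 at 118022589 to 118025117 (282 and 339), in each of which 1 sgRNA4 peak was joined to 3 of sgRNA6. There a single sgRNA4 peak bridged what the sgRNA6 list gives as 3.

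Members were unevenly spread over the chromosomes. Per Mb between the first and the last peak of any list, chromosome 19 held 4.85 members, chromosome 22 held 4.44 and chromosome 17 held 3.99, against 1.19 over all chromosomes. Chromosome 18 held 0.334, chromosome 13 held 0.419 and chromosome 4 held 0.577. By number, chromosome 1 (370), chromosome 17 (324) and chromosome 19 (286) together held 27.8% of all members. No member lay on chromosome Y, where the lists held 5 sgRNA4 and 36 sgRNA6 peaks. Chromosomes 17, 19 and 22 are known as gene-dense and chromosomes 4, 13 and 18 as gene-poor.

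The lists themselves were uneven in the same way. Chromosome 19 held 8.12% of members, 7.74% of sgRNA4 peaks and 6.76% of sgRNA6 peaks. Chromosome 17 held 9.20% of members, 8.46% of sgRNA4 peaks and 7.73% of sgRNA6 peaks. Chromosome 1 held fewer members (10.5%) than sgRNA4 peaks (12.1%) or sgRNA6 peaks (11.6%), but 13.6% of the regions that also held sgRNA5.

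Expressed as the share of a chromosome's own peaks, membership varied less. The share of sgRNA4 peaks in members lay between 16.9% on chromosome 13 (12.4 to 22.4) and 30.1% on chromosome 9 (26.3 to 34.1), leaving out chromosome Y. For sgRNA6 it lay between 6.36% on chromosome 18 (4.19 to 9.18) and 13.7% on chromosome X (11.5 to 16.2). Chromosomes 13 and 18 had the lowest sgRNA4 shares, with 40 of 236 and 28 of 138 peaks in members. They had the lowest sgRNA6 shares too, with 42 of 524 and 26 of 409.

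**Figure D5:**
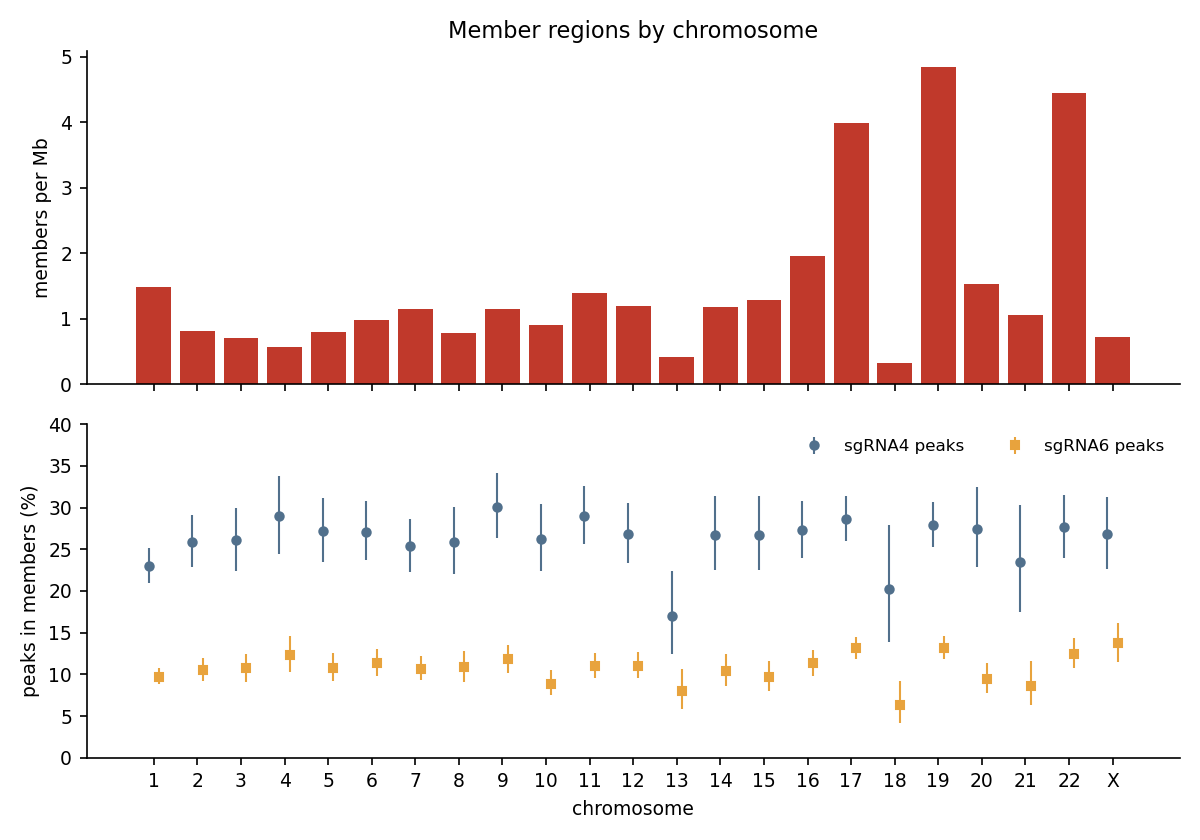
Top, member regions per Mb of each chromosome, with the length taken from the first to the last peak of any list; bottom, the share of each chromosome's sgRNA4 and sgRNA6 peaks that lay in members (%), with exact binomial 95% intervals. Chromosomes 17, 19 and 22 reach about 4 to 5 members per Mb, and chromosome 13 has the lowest share of sgRNA4 peaks in members, 16.9%.

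None of the 286 members on chromosome 19 had both peaks in the highest 10% of their lists. Only 16 had the sgRNA4 peak there and 31 the sgRNA6 peak, so a count of 0 with both is not read as a trait of this chromosome. An approximate limit of 3 in 286 allows a share of up to 1.05% (counting error only). This limit bounds the upper side only and is not an exact binomial interval as elsewhere. The count with both was also 0 on chromosomes 13 (40 members), 14 (104) and 18 (26), and 1 on chromosomes 9 (162), 12 (159) and 22 (156). It was 11 of 324 on chromosome 17 and 8 of 370 on chromosome 1. The median sgRNA6 score of chromosome 19 members was 96.3, against 118 over all members. The whole sgRNA6 list there had a lower median, 87.9. The sgRNA6 peak was in the highest 10% in 31 of the 286 members (10.8%), against 8.71% of all sgRNA6 peaks on that chromosome. With sgRNA4 the members had a median of 75.3 against 73.1 for all sgRNA4 peaks there, and 5.59% were in the highest 10%, against 6.81%. With only scores of 100 or more, chromosome 19 held 5.00% of members in place of 8.12%.

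Gaps were measured between members but not between regions of other kinds, and the lists themselves were uneven. Closeness is therefore not read as particular to the members. The median gap from a member to the next nearest was 87.6 kb, and 566 members (16.1%) had another within 10 kb. With gaps of up to 100 kb allowed, 1866 members (53.0%, 51.3 to 54.6) fell into 591 runs of 2 or more. The longest run held 51 members over 1631 kb on chromosome 19 at 404937 to 2035504, a stretch with 131 sgRNA4, 229 sgRNA6 and 29 sgRNA5 peaks. Its sgRNA4 scores went from 50.1 to 419 with a median of 84.1, and its sgRNA6 scores from 50.8 to 673 with a median of 98.4.

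The runs next in size held 18 members on chromosome 17 at 78932412 to 79495557, then 14 on chromosome 8 at 144801514 to 145237335, with another of 14 on chromosome 9 at 138852444 to 139439704. The chromosome 8 run took in 30 sgRNA4 and 44 sgRNA6 peaks but only 3 of sgRNA5. With gaps of up to 50 kb, 1349 members were in runs and the longest held 10, so the long run on chromosome 19 is made of shorter ones. By windows of 1 Mb, 1351 windows held a member, and 43 windows with 10 or more held 591 members. The fullest, with 33, was on chromosome 19 at 1000001 to 2000000, a window that also held 91 sgRNA4 and 136 sgRNA6 peaks. Within 5 Mb of the first or last peak of a chromosome lay 22.6% of members (21.3 to 24.0), 21.1% of sgRNA4 peaks and 21.0% of sgRNA6 peaks.

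By the rule, no peak of the guides left out touches a member, and the distance to the nearest one also depends on the length of its list. The nearest sgRNA5 peak lay at a median of 42.5 kb from a member. The median was 49.5 kb for regions of sgRNA4 alone and 56.0 kb for those of sgRNA6 alone. In 239 members (6.78%, 5.98 to 7.67) it lay within 1000 bp. The corresponding shares were 4.07% for regions of sgRNA4 alone (3.60 to 4.58) and 3.49% for those of sgRNA6 alone (3.26 to 3.73). The median distance to the nearest peak was 346 kb for sgRNA1, 860 kb for sgRNA2 and 1329 kb for sgRNA3. The nearest sgRNA1 peak was within 1000 bp of 32 members, the nearest sgRNA2 peak of 16 and the nearest sgRNA3 peak of 11. Taking these 4 guides together, 266 members (7.55%) had such a neighbour, and 811 (23.0%) had one within 10 kb. Those members are shared by sgRNA4 and sgRNA6 only at the chosen joining distance.

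The number of members moved more with the score floor than with the overlap or centre distance asked for. It was 2533 when 50% of both peaks had to overlap. When the centres of an sgRNA4 and an sgRNA6 peak had to lie within 500 bp, in place of an overlap, it was 3162. With the higher-scoring 50% of every list, 1725 regions met the rule, and with scores of 100 or more 1379 did, counts that also reflect the shorter lists left. Without the replicate 2 lists of sgRNA1, sgRNA2 and sgRNA3, all 3523 members were kept and 243 were added.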

How the data were processed

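HA ChIP-seq peak lists of HEK 293T cells were used as deposited, 9 lists for 6 guides. Of 12 samples described, the other 3 were not analysed here. Per the submitters' processing notes, Bowtie, Bowtie2 and MACS were used with hg19, with neither versions nor settings given in the sources at hand. The deposited score is the value that the authors' caller wrote for each peak, called per library. It was used only to describe or rank peaks within a list. The lists hold no counts, so depth is unknown.

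Peaks were joined where they shared at least 1 bp. The joining was tested on simulated data, and bedtools 2.31.1 gave the same 43438 regions and 3523 members. Shares carry exact binomial (Clopper-Pearson) intervals from scipy 1.17.1, with Python 3.11.15 and pandas 2.3.3. Geometry used the pair of peaks with the largest overlap in a region. No test was run: sgRNA4 and sgRNA6 had 1 library each, and the rule used the peak calls. Members and lists were chosen with earlier results of these data known.

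Named regions followed a rule. It took the 8 members whose worse rank was best, the 5 highest by each list, the 3 with the widest rank gap each way, the 3 longest, the 3 with most peaks (ties by position), the 3 smallest overlaps and nearest misses, and the longest runs. Genes, promoters and base composition had been planned and were not analysed, as the gene tables at hand are of GRCh38.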

Additional observations from a re-analysis of the deposited data

How the results depend on the processing

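Of 52 alternative values for 8 results, 28 stayed close to the reported value and 24 did not. Close meant within 1.5 times (counts and the rank correlation) or inside the 95% interval of the reported value (shares). Counts and shares cannot change sign, and the rank correlation stayed positive in each setting where it was computed. Asking for an overlap of 50% of both peaks gave 18.5% of sgRNA4 and 7.54% of sgRNA6 peaks in members, a rank correlation of 0.154 and 42.1% nested pairs. Centres within 500 bp, in place of an overlap, gave 23.3%, 9.50% and 42.5% nested. The higher-scoring 50% of each list gave 1725 members, 25.7% and 10.6% of peaks, a rank correlation of 0.0644, 5.91% of members on chromosome 19 and 41.6% nested. Scores of 100 or more gave 1379 members, 34.1% and 9.83% of peaks, 5.00% on chromosome 19 and 44.2% nested. Joining within 1000 bp gave 30.8% and 14.4% of peaks and 31.4% nested. Leaving out replicate 1 or replicate 2 of sgRNA1, sgRNA2 and sgRNA3 gave 26.5 to 28.3% of sgRNA4 and 11.0 to 11.8% of sgRNA6 peaks. By width, 5.22% of members had both peaks in the highest 10%. A score floor shortens every list by construction, those of the guides left out included, so it can add members as well as remove them. Why the values moved was not tested. No paired analysis was possible because sgRNA4 and sgRNA6 have 1 library each. Unknown depth limits any reading of a missing peak.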

Other observations

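Long stretches without a member still held peaks of both lists. No hg19 genome was used, so how much of each stretch has sequence to which reads can map was not measured. The lack of members there is therefore not read as a result. The longest, 24.3 Mb on chromosome 1 at 120257042 to 144520712, held 10 sgRNA4 and 17 sgRNA6 peaks. On chromosome 9 at 45443261 to 66457208, 21.0 Mb held 3 and 7. On chromosome 13 at 53426076 to 73632456, 20.2 Mb held 28 sgRNA4 and 49 sgRNA6 peaks, none of them shared by these guides alone. Over the genome, 2157 windows of 1 Mb held a peak of both lists, and 806 of these held no member.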
